A study of Saccharomyces cerevisiae with 24 samples.

Results

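The 10 genes described here encode enzymes of glycolysis below the hexokinase step in Saccharomyces cerevisiae: PGI1, PFK1, PFK2, FBA1, TPI1, PGK1, GPM1, ENO1, ENO2 and CDC19. They were taken by name from the platform annotation, and all 10 of 10 were measured, each by 1 probe set naming that gene alone, among 5656 genes in all. RNA was read on 24 single-colour Affymetrix arrays in 8 groups of 3 biological replicates, from haploid MATa cells growing in log phase in YPLG medium that then received galactose to 2%. The control strain YSS37 carries IFH1 with a 13myc tag (IFH1-13myc-TRP1) under its own promoter and was sampled at 0, 30 and 60 min. YSS89 carries the same tagged gene with its upstream activating sequence replaced by that of GAL1, together with HIS3, and was sampled at 0, 20, 30, 40 and 60 min. The labels give the times without a unit, and minutes are assumed. IFH1 encodes a coactivator of ribosomal protein genes. Through the GAL1 sequence galactose induces it strongly in YSS89, and both strains carry the tag and respond to galactose itself. Nothing in the labels says how many clones stand for each strain.

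Glycolysis splits glucose or, after conversion, galactose into pyruvate with a net gain of ATP, and in yeast most of the pyruvate goes on to ethanol. Its genes are among the most strongly transcribed in this organism, and their promoters are bound by Rap1 and by the activator pair Gcr1 and Gcr2. Most steps below hexokinase also run backwards in gluconeogenesis, which cells use on a non-fermentable carbon source, whereas the phosphofructokinase and pyruvate kinase steps are bypassed.

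The strain labels were checked first. The intensity of IFH1 in YSS89 lay between 21.7 and 34.6 before galactose and was 1355.0, 1304.6 and 1435.7 at 20 min, whereas in YSS37 it lay between 15.9 and 41.6 on every array. GAL1, the galactokinase, lay at 11.6 or below at time 0 and at 1340.0 or above on all later arrays of both strains. HIS3, named in the label of YSS89, averaged 4.9 ± 2.2 (SD, n = 3) in YSS37 and 16.9 ± 1.3 in YSS89 at time 0, both low. TRP1, named for both strains, averaged 319 ± 40.5 and 460 ± 26.9 at time 0. At 60 min it averaged 296 ± 15.9 and 278 ± 34.5. Its log2 response at 60 min was lower in YSS89 (-0.70 quantile normalized, -0.63 as deposited, both called). The pheromone precursor and receptor genes of alpha cells, MF(ALPHA)1, MF(ALPHA)2 and STE3, stayed at 12.5 or below, and both strains are labelled MATa. The fourth alpha-cell gene on the list, SAG1, the alpha-agglutinin, read 15.6 to 34.6, while the 6 a-cell genes were between 29.3 and 933.0, so that SAG1 overlapped with the low end of the a-cell genes. Hybridization fell into 4 rounds by the instrument files. The first round held only YSS37 arrays, and replicate c of YSS37 at 60 min was the only YSS37 array outside it, in the second round. All YSS37 arrays came from 1 chip lot that no YSS89 array with a recorded lot shared. Strain and lot therefore cannot be told apart, and strain and round only through that 1 array. Before galactose, replicates b and c of YSS89 were a round of their own and stood apart: the mean of their 25S rRNA control probe sets was 313 and 90.86, against 560.1 to 1056 on the other arrays. Some results against time 0 of YSS89 are also given without these arrays. That leaves 1 array at time 0 of YSS89, replicate a, which the fit assumes to vary like the other groups.

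The 10 glycolytic signals lay near the top of each array's range. Ranked by intensity among the 5656 genes, CDC19 held rank 7 to 83 over the 24 arrays, TPI1 15 to 83, FBA1 14 to 106, ENO2 16 to 113, GPM1 13 to 129, PGK1 21 to 139 and ENO1 4 to 450. The signals of PGI1 (rank 76 to 234), PFK1 (222 to 394) and PFK2 (222 to 347) lay lower. A rank gives the place of a probe set's signal on its array and not the relative abundance of transcripts, since probe sets differ in their response.

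At this end of the range the scaling of the arrays mattered. The deposited values had been scaled to a common trimmed mean, and their 99th percentile rose in YSS89 from 1774 ± 16.6 (SD, n = 3) at time 0 to 3260 ± 131 at 30 min and 2873 ± 124 at 60 min. In YSS37 it went from 1998 ± 34.3 to 2405 ± 164 at 60 min. Quantile normalization gives every array the same distribution of log2 values and so removes that difference, while the deposited scaling keeps it. Every change below is given on the quantile scale first and then on the deposited scale, both as log2(intensity + 1.4) fitted with limma over all genes. A gene was called where its p, adjusted with Benjamini-Hochberg over all genes of the comparison, was under 0.05. As deposited, the median change of all genes was 0.11 in YSS37 at 60 min (0.010 on the quantile scale). In YSS89 it was -0.12 at 20 min (-0.013) and -0.092 at 30 min (0.013). In the strain comparisons at 0, 30 and 60 min it was 0.21, 0.099 and 0.14 (0.043, 0.071 and 0.10). In the differences of responses at 30 and 60 min it was -0.18 and -0.13 (-0.026 and 0.028).

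**Figure D1:**
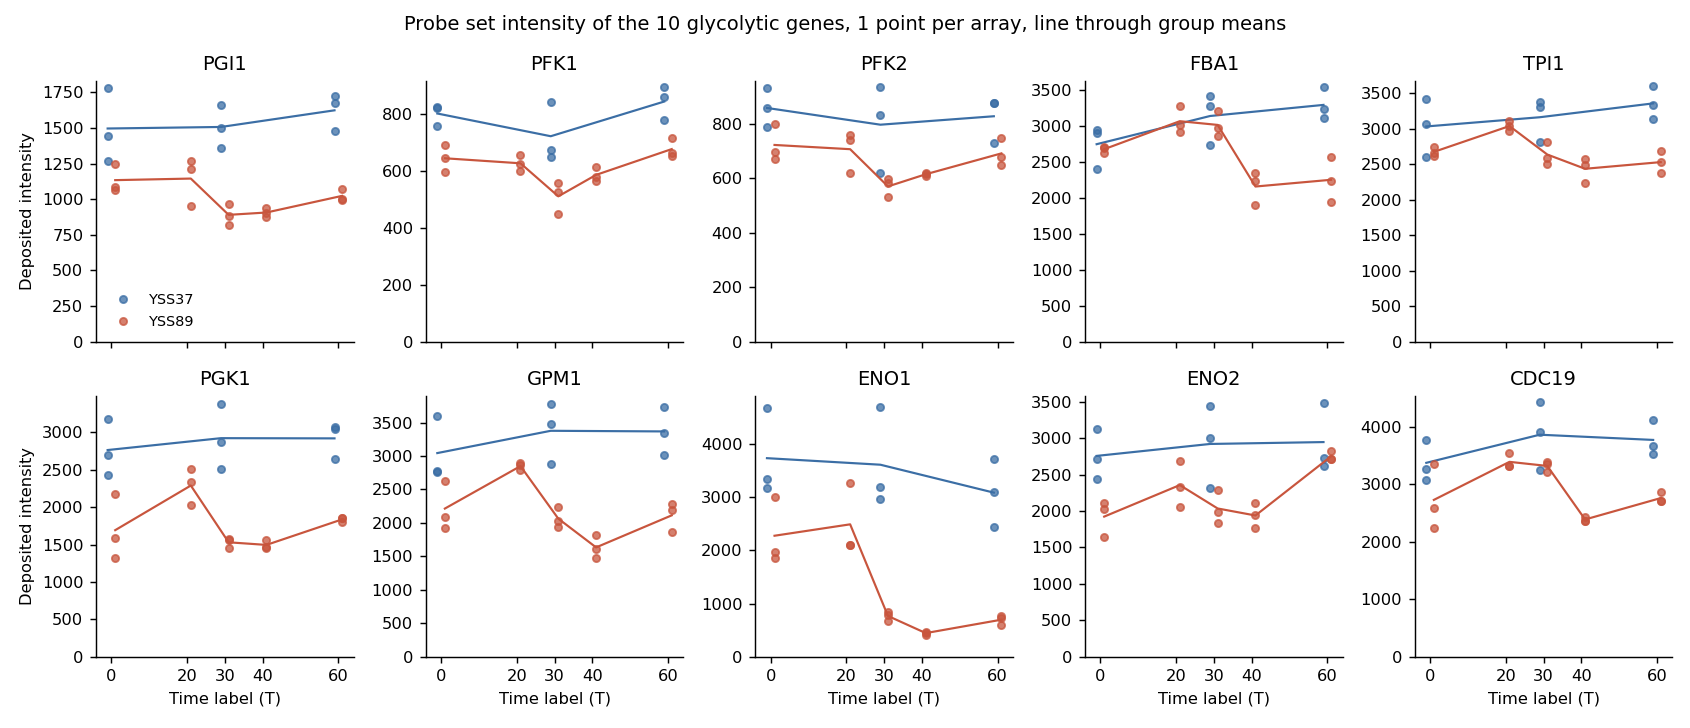
Deposited intensity (linear axis from 0) of the 10 glycolytic genes against the time label, 1 point per array, with lines through the group means of 3 arrays for YSS37 (blue) and YSS89 (red). ENO1 in YSS89 lies between 414.0 and 845.6 at 30 to 60 min, below all of its arrays at 0 and 20 min, which start at 1859.6.

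In the control strain none of the 10 genes passed the test after galactose. Of the 10 genes 0 rose and 0 fell at 30 min, where 14.4% of all genes were called higher and 12.4% lower on the quantile scale, and 17.1% and 12.3% on the deposited scale. The same counts of 0 and 0 held at 60 min, where 21.1% and 20.5% of all genes were called on the quantile scale and 25.8% and 18.5% on the deposited scale. Without adjustment, limma gave a p under 0.05 for 0 genes at 30 min and for 1 gene at 60 min, ENO1 (lower) on the quantile scale and FBA1 (higher) on the deposited scale. The median change of the 10 genes at 60 min was -0.036 (0.11), beside a median of all genes of 0.010 (0.11).

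PGI1, the phosphoglucose isomerase that interconverts glucose 6-phosphate and fructose 6-phosphate, read 1496 ± 262.0 (SD, n = 3) before galactose in YSS37 and 1623 ± 128.8 at 60 min. For PFK1, which encodes the alpha subunit of phosphofructokinase, the means were 803 ± 36.9 and 845 ± 59.4. The 3 arrays of each group overlapped for both genes. ENO1 had the widest spread in YSS37, with 4679.5, 3174.4 and 3341.5 at time 0 and 3095.3, 3722.8 and 2434.5 at 60 min, a change of -0.48 ± 0.21 (SE) on the quantile scale with an adjusted p of 0.0746 by limma. It was called only when replicate b of the 60 min group was left out (-0.64).

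In YSS89 the outcome depended on the gene. ENO1, 1 of the 2 enolase isozymes that convert 2-phosphoglycerate to phosphoenolpyruvate, fell after 20 min by an amount far beyond the spread of its replicates, and it did so under every scaling. Its arrays read 2993.5, 1970.2 and 1859.6 at time 0 and 2099.8, 3256.9 and 2109.7 at 20 min. They read 845.6, 672.4 and 782.7 at 30 min, then 414.0, 455.8 and 465.8 at 40 min, and 597.8, 724.2 and 768.9 at 60 min. The arrays from 30 min on did not overlap with the earlier ones. On the quantile scale the 3 changes were -1.94 ± 0.21, -2.69 ± 0.21 and -2.06 ± 0.21, and limma's adjusted p was 4.2e-07, 5.6e-09 and 2.1e-07. On the deposited scale the changes were -1.54 ± 0.22, -2.32 ± 0.22 and -1.68 ± 0.22, with adjusted p of 1.15e-05, 5.72e-08 and 4.72e-06 by limma.

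The fall of ENO1 did not rest on the arrays that stood apart. Leaving out replicates b and c of the group before galactose, it was -2.37, -3.12 and -2.49 at 30, 40 and 60 min, and within the second round it was -2.22, -3.19 and -2.66 (between -2.85 and -1.82 as deposited). In that round each of these values sets 1 array, replicate a, against replicate a of time 0. Both checks thus rest on the same time 0 array, the highest of that group for ENO1, and are not separate evidence. At each of these 3 times ENO1 was called lower under all 22 alternatives run, 6 of which left out 1 array. At 20 min it was called under 0 of 22. The median-centred values gave its smallest change at each time, -1.38, -2.21 and -1.57.

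ENO2, the other enolase, did not follow. Its YSS89 arrays read 2103.7, 2025.8 and 1641.1 at time 0 and 2710.9, 2716.1 and 2824.2 at 60 min, so on the deposited scale all 3 later arrays lay above all 3 earlier ones. The change at 60 min was 0.52 ± 0.16 as deposited, with an adjusted p of 0.0112 by limma, but -0.15 ± 0.14 and not called after quantile normalization (adjusted p = 0.424). As deposited and without replicates b and c of time 0, it was 0.39 with an adjusted p of 0.203 by limma. At 30 min ENO2 was called lower on the quantile scale (-0.65 ± 0.14) and stood at 0.084 ± 0.16 as deposited, not called. The sign of the change of ENO2 thus depended on the scaling.

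The ratio of 2 probe sets on the same array does not change with a linear scaling of that array. The log2 ratio of ENO1 to ENO2 in YSS89 averaged 0.22 ± 0.28 (SD, n = 3) before galactose and 0.056 ± 0.21 at 20 min. It then dropped to -1.41 ± 0.057 at 30 min and lay at -2.12 ± 0.15 and -1.99 ± 0.17 at 40 and 60 min. From 30 min on its highest array was -1.34, and at time 0 its lowest was -0.040. In YSS37 the ratio was 0.42 ± 0.18, 0.29 ± 0.19 and 0.056 ± 0.21 at 0, 30 and 60 min, with overlapping arrays. Only changes of this ratio can be read, because the 2 probe sets may differ in response. All later arrays of YSS89 against time 0 gave a difference of -1.58, with p = 0.022 by a two-sided exact permutation test and 0.0879 after adjustment over the 4 ratio tests, past 0.05 before the adjustment and not after it. This test pools the 20 min arrays, which overlapped with time 0, with the later ones, and without replicate b at 20 min it gave -1.73 and passed. For YSS37 the difference was -0.25, with an exact permutation p of 0.119 (adjusted 0.238).

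**Figure D2:**
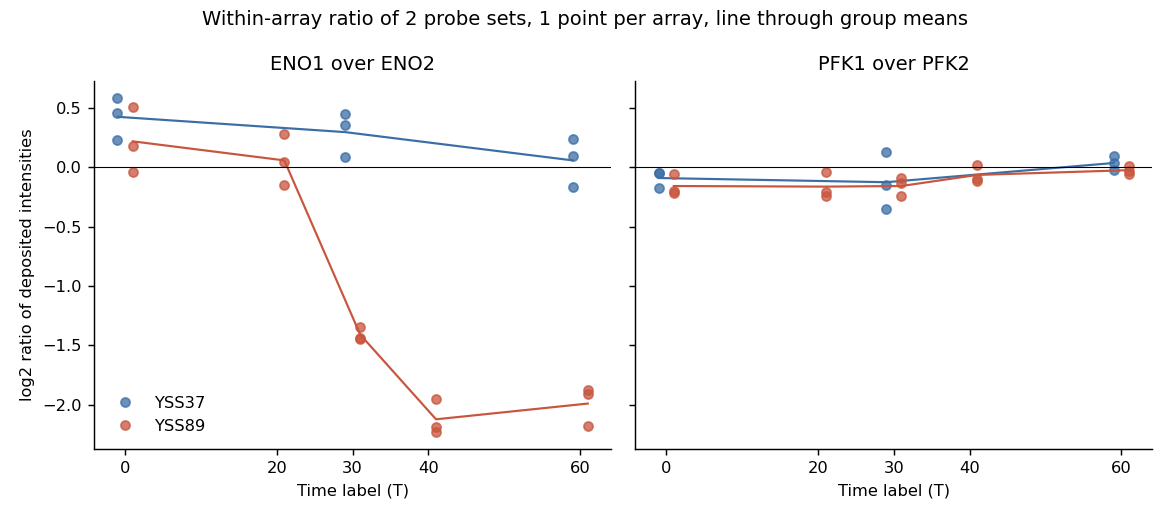
The log2 ratio of deposited intensities of ENO1 to ENO2 (left) and of PFK1 to PFK2 (right) against the time label, 1 point per array, with lines through the means of 3 arrays for YSS37 (blue) and YSS89 (red). The enolase ratio of YSS89 lies at -1.34 or below from 30 min on, while the phosphofructokinase ratio stays between -0.36 and 0.12 on all arrays.

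The enolase genes are close paralogs, and both probe sets carry the suffix that marks a reduced number of unique probes, so their signals may contain some of the other isozyme. A further probe set that names both enolases averaged 2187 at time 0 in YSS89 and 1835, 1700 and 2385 at 30, 40 and 60 min. Its course thus lay between those of the probe sets that name 1 enolase.

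The phosphofructokinase subunits stayed together. The log2 ratio of PFK1 to PFK2, the alpha and beta subunits of the enzyme that commits fructose 6-phosphate to glycolysis, was -0.16 ± 0.091 (SD, n = 3) at time 0 and -0.026 ± 0.033 at 60 min in YSS89. The later arrays differed from time 0 by 0.055 in YSS89 (exact permutation p = 0.378, adjusted 0.504) and by 0.046 in YSS37 (exact permutation p = 0.69, also 0.69 after adjustment). Levels of PFK1 in YSS89 were 645 ± 46.9, 511 ± 57.3 and 678 ± 35.4 at 0, 30 and 60 min. Those of PFK2 were 721 ± 66.8, 569 ± 34.5 and 691 ± 50.1. PFK1 was lower at 30 min under both scalings, by -0.32 ± 0.10 and -0.34 ± 0.11, a call kept in 4 of the 6 fits that left out 1 array on the quantile scale, and at 60 min it was not called (0.11 and 0.072). PFK2 at 30 min gave -0.32 ± 0.13 with an adjusted p of 0.0512 and -0.34 ± 0.14 with 0.0495 by limma, on either side of the threshold.

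Over the 10 genes of YSS89 the counts were as follows. At 20 min 1 gene fell on the quantile scale, TPI1, where 10.4% of all genes were called lower, a call kept in 1 of the 6 fits that left out 1 array, and 0 fell as deposited, while 1 rose as deposited, PGK1, where 5.14% of all genes were called higher. At 30 min 9 fell on the quantile scale, beside 23.6% of all genes, and 4 as deposited, beside 28.1%. At 40 min 8 fell, beside 21.5%, and 3 as deposited, beside 24.1%. At 60 min 6 fell, beside 19.8%, and 1 as deposited, ENO1, beside 21.9%. On the deposited scale 1 gene, ENO2, rose at 60 min, where 19.3% of all genes were called higher. The median of the 10 changes at 30, 40 and 60 min was -0.68, -0.77 and -0.51 on the quantile scale and -0.10, -0.20 and -0.061 as deposited, beside medians of all genes of 0.013, 0.056 and 0.075 and of -0.092, -0.024 and 0.0070. At 60 min on the deposited scale the share of the 10 genes called lower was below that of all genes.

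**Figure D3:**
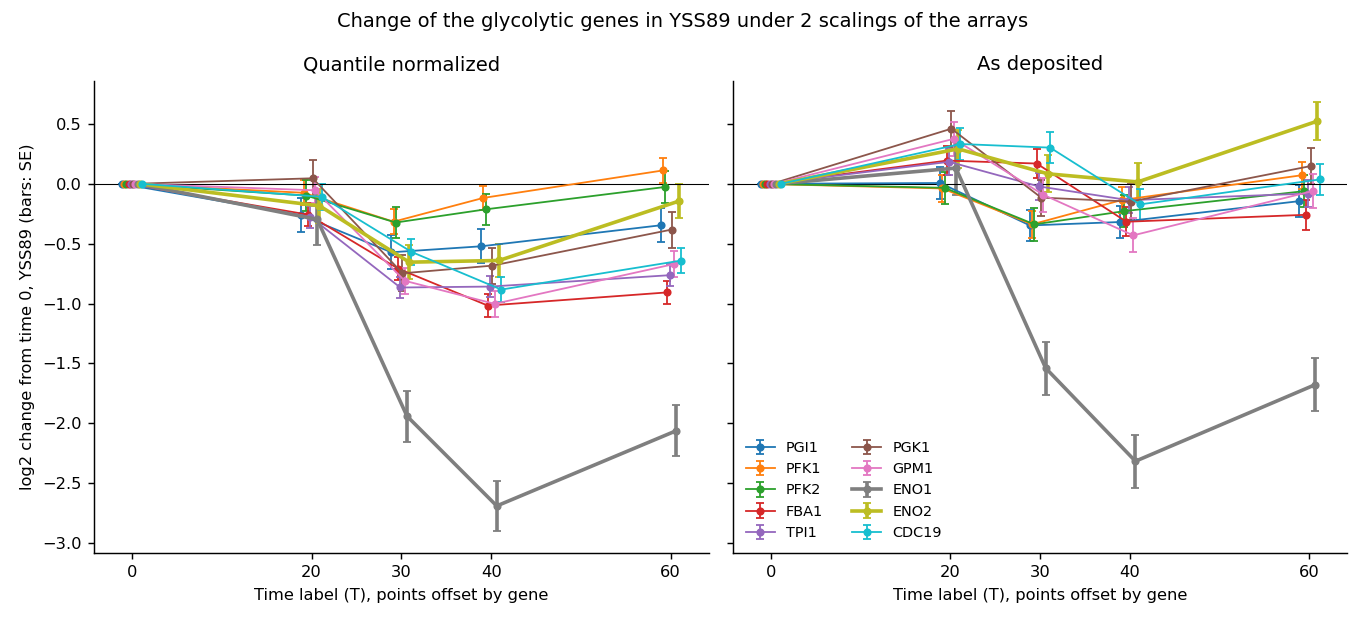
The log2 change from time 0 in YSS89 (bars, SE of the fit) against the time label for the 10 glycolytic genes, quantile normalized (left) and as deposited (right), with points offset sideways by gene and the enolases in heavier lines. ENO1 falls in both panels, to -2.69 and -2.32 at 40 min, while FBA1, TPI1, PGK1, GPM1, ENO2 and CDC19 lie at least 0.57 below 0 at 30 min on the left and between -0.12 and 0.30 on the right.

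The steps between the phosphofructokinase and enolase reactions came next in the pathway. FBA1, the aldolase that cleaves fructose 1,6-bisphosphate, read 2708.8, 2698.0 and 2627.5 at time 0 in YSS89 and 2240.8, 1947.4 and 2569.1 at 60 min. All later arrays lay below all earlier ones, yet the fitted change was -0.91 ± 0.097 on the quantile scale (adjusted p = 3.7e-07 by limma) and -0.26 ± 0.12 as deposited (adjusted p = 0.101). At 30 min FBA1 was -0.71 ± 0.097 against 0.17 ± 0.12, called only on the quantile scale. At 40 min it was called under both scalings, -1.02 and -0.32.

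TPI1, the triose phosphate isomerase, read 2748.4, 2616.7 and 2656.7 at time 0 and 2377.0, 2681.4 and 2531.2 at 60 min, and these arrays overlapped. Its change at 60 min was -0.76 ± 0.091 (adjusted p = 1.4e-06 by limma) on the quantile scale and -0.081 ± 0.11 as deposited (adjusted p = 0.592). GPM1, the phosphoglycerate mutase, read 2628.8, 1931.0 and 2083.5 at time 0 and 1477.2, 1610.2 and 1815.5 at 40 min, without overlap. It was called lower at 40 min under both scalings, by -1.003 ± 0.11 and -0.43 ± 0.14, but at 60 min only on the quantile scale (-0.67 and -0.060).

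PGK1, the phosphoglycerate kinase that forms ATP, read 2169.9, 1587.3 and 1318.7 at time 0 and 1855.1, 1801.6 and 1850.7 at 60 min. Replicate a of time 0 lay well above replicates b and c, and the same held for GPM1, ENO1 and CDC19 in that group. The change of PGK1 at 60 min was -0.38 ± 0.15 on the quantile scale (adjusted p = 0.0456 by limma) and 0.15 ± 0.15 as deposited, not called. Leaving out 1 array gave -0.60 to -0.15 on the quantile scale and kept the call in 1 of 6 fits, and the gene was called in 10 of the 22 alternatives, which ran from -0.86 to 0.26. Its rise at 20 min, 0.46 ± 0.15 as deposited (adjusted p = 0.0348), was 0.071 without replicates b and c of time 0.

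CDC19, the main pyruvate kinase, read 3358.0, 2240.2 and 2596.3 at time 0 in YSS89, 3222.0, 3359.5 and 3386.1 at 30 min, and 2863.3, 2708.8 and 2717.4 at 60 min. The groups overlapped. The change at 30 min was -0.57 ± 0.11 on the quantile scale (adjusted p = 0.000252 by limma) and 0.30 ± 0.13 as deposited (adjusted p = 0.0724), opposite in sign. At 60 min it was -0.64 ± 0.11 and called, against 0.037 ± 0.13 and not called.

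PGI1, at the top of the series, read 1250.0, 1088.8 and 1061.4 at time 0 and 822.1, 884.4 and 963.4 at 30 min in YSS89, without overlap. It was lower at 30 min under both scalings, by -0.57 ± 0.14 and -0.35 ± 0.13, with adjusted p of 0.00284 and 0.0386 by limma. At 60 min it was not called under either (-0.35 and -0.14). With the arrays centred on their medians, 1 of the 10 genes, ENO1, remained called lower at each of 30, 40 and 60 min. Of all 5656 genes 1171, 1127 and 1028 were then called lower.

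A description that needs no scaling between arrays sets each gene against the median of the 10 on the same array, and it was chosen after seeing how the scaling mattered. On that basis ENO1 in YSS89 changed by -1.32 ± 0.13, -1.95 ± 0.094 and -1.65 ± 0.16 (SE) at 30, 40 and 60 min. ENO2 moved the other way within the set, by 0.31 ± 0.11, 0.38 ± 0.10 and 0.56 ± 0.081. CDC19 stood out at 30 min with 0.52 ± 0.12 and was back at 0.070 ± 0.12 by 60 min, and FBA1 went from 0.39 ± 0.12 to -0.23 ± 0.14. For each of ENO1 and ENO2 the arrays at these 3 times did not overlap with time 0. At 60 min the other genes lay between -0.23 and 0.18.

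The strains were also compared directly at equal times, which leaves out time 0 of YSS89 for the later times. Before galactose 1 gene, PGK1, was lower in YSS89 on the quantile scale, beside 10.2% of all genes, and 6 were lower as deposited, beside 7.16%. PGK1 read 3171.2, 2690.5 and 2426.2 in YSS37 against 2169.9, 1587.3 and 1318.7 in YSS89, a difference of -0.58 ± 0.15 (adjusted p = 0.00654 by limma), or -0.73 ± 0.15 as deposited. Leaving out replicates b and c of YSS89 keeps replicate a alone, the YSS89 array nearest to YSS37 for PGK1. That fit cannot decide whether the differences persist. PGK1 was called lower in 13 of the 19 alternatives, which ran from -1.10 to -0.11.

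At 30 min 9 genes were lower in YSS89, beside 20% of all genes, and 7 as deposited, beside 18.4%. ENO1 differed by -2.27 ± 0.21 and -2.21 ± 0.22, and PGK1 by -1.24 ± 0.15 and -0.92 ± 0.15. FBA1 was called on the quantile scale (-0.56) and not as deposited (-0.053, adjusted p = 0.755 by limma).

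At 60 min the scalings gave nearly the same picture. Of the 10 genes 7 were lower in YSS89, beside 11.4% of all genes, and 8 as deposited, beside 10.3%, and 0 were higher under either. GPM1 read 3019.0, 3349.6 and 3732.2 in YSS37 and 2189.5, 1867.6 and 2282.5 in YSS89, so that all arrays of one strain lay above all of the other. It differed by -0.89 ± 0.11 (adjusted p = 1.1e-05 by limma) and by -0.67 ± 0.14 as deposited (adjusted p = 0.00186). FBA1 differed by -0.78 ± 0.097 and -0.56 ± 0.12, TPI1 by -0.67 ± 0.091 and -0.41 ± 0.11, PGK1 by -0.84 ± 0.15 and -0.67 ± 0.15, and CDC19 by -0.70 ± 0.11 and -0.45 ± 0.13. ENO1 differed by -2.13 ± 0.21 and -2.13 ± 0.22.

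FBA1, TPI1, PGK1, GPM1, ENO1 and CDC19 were called lower in YSS89 at 60 min under all 18 alternatives run for that comparison, 6 of which left out 1 array, and PGI1 under 17 of 18. The exception for PGI1 had an adjusted p of 0.0605 by limma. PFK1 and PFK2 differed less, by -0.19 and -0.12 (not called), and as deposited by -0.32 (called) and -0.26 (not called). ENO2 was not called under either scaling, -0.34 ± 0.14 (adjusted p = 0.0722 by limma) and -0.088 ± 0.16. Since the strains lay on different chip lots, the part of the lot in these differences cannot be told apart from that of the strain. The rounds also differed between the strains but for 1 array, replicate c of YSS37 at 60 min. The alternative with the round as a block rests on that array and cannot separate round from strain well.

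**Figure D4:**
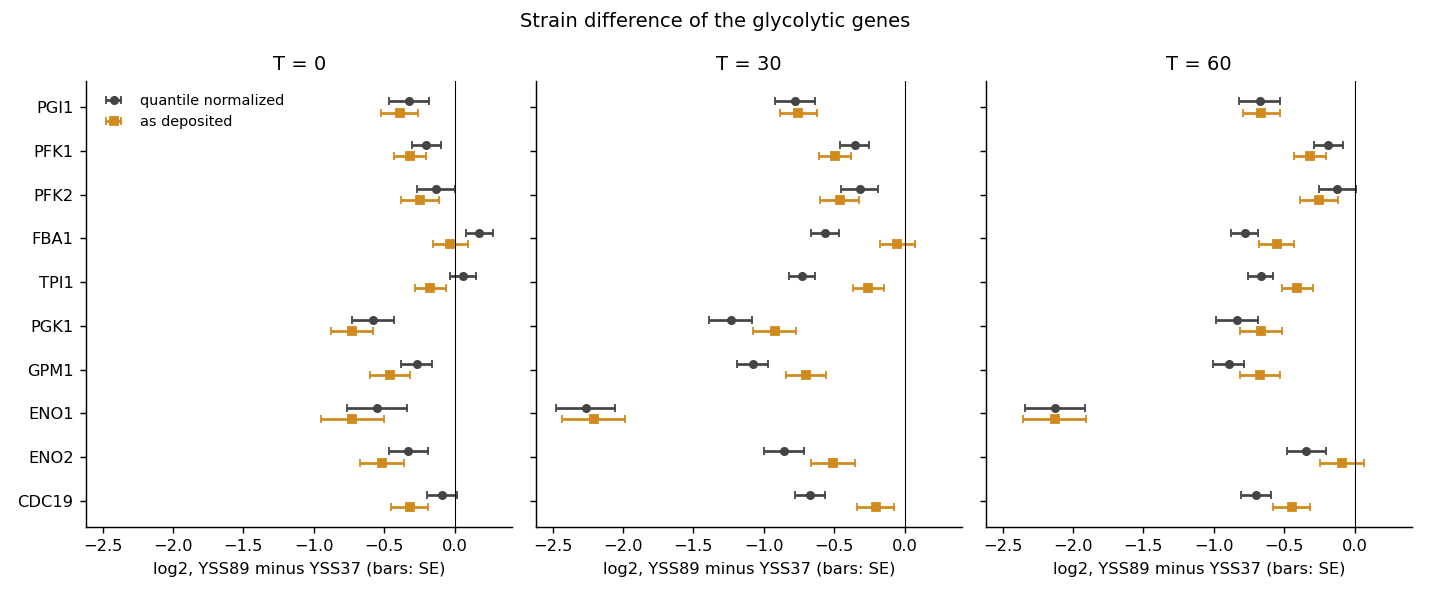
The log2 difference of YSS89 minus YSS37 (bars, SE of the fit) for the 10 glycolytic genes at 0, 30 and 60 min, quantile normalized (dark circles) and as deposited (orange squares). At 60 min all 10 genes lie below 0 under both scalings, with ENO1 at -2.13.

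The difference of the responses, YSS89 from its time 0 minus YSS37 from its time 0, asks whether the strains changed unequally. On the quantile scale 6 of the 10 genes had a lower response in YSS89 at 30 min, beside 11% of all genes, and 1 as deposited, ENO1, beside 15.6%. At 60 min 5 had, beside 8.42%, and 2 as deposited, FBA1 and ENO1, beside 11.4%. ENO1 differed by -1.72 ± 0.30 (adjusted p = 0.000621 by limma) and -1.48 ± 0.31 (adjusted p = 0.00229) at 30 min, and by -1.58 ± 0.30 and -1.40 ± 0.31 at 60 min. It was called under all 26 alternatives at both times. FBA1 at 60 min differed by -0.96 ± 0.14 and by -0.52 ± 0.17 as deposited, the latter with an adjusted p of 0.047 by limma and not called without b and c of YSS89. PGK1 at 30 min, -0.66 on the quantile scale, was called in 3 of the 12 fits that left out 1 array.

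Relative to the shift of all genes, the median of the 10 differences of responses was -0.59 at 30 min and -0.51 at 60 min on the quantile scale, and -0.0031 and -0.044 as deposited. For the direct strain difference at 60 min the same measure was -0.79 and -0.64. The direct comparison and the difference of responses share the later arrays and are not separate evidence.

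The genes of the other glycolytic steps and of the neighbouring pathways were read from lists of general yeast knowledge. Of the other glycolytic enzymes 5 of 6 were measured, and in YSS89 at 60 min 1 rose, beside 23.9% of all genes called higher on the quantile scale, and 4 fell, beside the 19.8% called lower. The shares of all genes called at 60 min, given above, ran from 18.5% to 25.8% over both directions, strains and scalings, and the counts of the lists below, which hold 3 to 5 measured genes each, stand against that background. After seeing the data, the list genes at 60 min in YSS89 were also fitted without replicates b and c of time 0. TDH1, a glyceraldehyde 3-phosphate dehydrogenase isozyme, read 988.3, 195.8 and 173.2 at time 0, 730.0, 978.2 and 1203.1 at 20 min, and 68.3, 43.0 and 64.6 at 60 min. Its fall at 60 min was -2.47 ± 0.48 on the quantile scale and -2.46 as deposited, with adjusted p of 0.00038 and 0.00015 by limma. Replicate a lay far above b and c at time 0, and without those 2 arrays the change was -4.23 and -4.07, still called, so its size depended on them. In YSS37 the arrays of TDH1 at 60 min, 1135.3, 1046.5 and 870.9, overlapped with those at time 0, and the responses differed by -2.13 ± 0.69 and -2.22 as deposited, both called, or by -3.88 and -3.83 without b and c of YSS89, also called. TDH3, the most brightly read isozyme here, was called lower on the quantile scale (-0.38) and higher as deposited (0.38) at 60 min. The second of these calls was lost without b and c (0.37, adjusted p = 0.162 by limma).

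Among the minor isozymes, PYK2 and GPM2 fell in both strains and GPM3 rose. PYK2, a second pyruvate kinase, fell by 1.88 in YSS37 and by 0.88 in YSS89 at 60 min on the log2 quantile scale, and GPM2, a homolog of GPM1, fell by 1.39 and by 1.42. GPM3, a further homolog, rose by 0.95 and 0.77. All 6 of these changes were called as deposited too. Several of these signals lay low, where the 25th percentile of all values was 6.2. In YSS89 at 60 min GPM2 averaged 10.87 and PYK2 13.97. In YSS37 at that time they read 30.8 to 43.8 and 11.3 to 38.3. GPM3 at time 0 read 4.8 to 15.6 in YSS37 and 14.2 to 16.5 in YSS89. The sizes of the falls in YSS89 and of the rise of GPM3 are therefore uncertain. Without b and c of YSS89 at time 0, GPM2 was still called there (-2.11), and PYK2 (-1.06, adjusted p = 0.0789 by limma) and GPM3 (0.79, adjusted p = 0.116) were not.

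Upstream of PGI1, 3 of the 4 hexose-phosphorylating genes fell in YSS37 at 60 min and 2 in YSS89 (3 in each as deposited). Without b and c 3 fell in YSS89, EMI2 (-0.89) being the addition. HXK1, the hexokinase made on poor carbon sources, read 1201.4, 1219.5 and 1102.2 at time 0 in YSS37 and 153.3, 218.7 and 214.6 at 60 min, a change of -2.62 ± 0.31. In YSS89 it read 486.1, 215.0 and 255.0 at time 0, and the change was -2.23 ± 0.31 (-3.01 without b and c). The difference of responses of HXK1 was 0.39, not called, and -0.36 without b and c. GLK1, the glucokinase, fell by 1.32 in YSS37 and by 1.99 in YSS89 (-2.66 without b and c). Its difference of responses was -0.67, not called, and -0.80 as deposited, called. Without b and c it was -1.32 on the quantile scale. HXK2, the hexokinase that predominates on glucose, was not called (0.23 and 0.36).

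Of the 3 genes that make or remove fructose 2,6-bisphosphate, the activator of phosphofructokinase, PFK26 and FBP26 fell in both strains at 60 min, PFK26 by 0.95 in YSS37 and by 0.98 in YSS89. PFK27 rose in YSS37 (1.45 ± 0.31) and was not called in YSS89 (0.65 ± 0.31). Its signal lay near the floor, averaging 2.2 at time 0 and 8.9 at 60 min in YSS37. As deposited these calls were the same, and the YSS89 calls also held without b and c.

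Of the 4 genes from pyruvate to ethanol, 0 were called in YSS37 at 60 min, and 3 fell in YSS89 on the quantile scale but 1, PDC6, as deposited. ADH1, the main fermentative alcohol dehydrogenase, was -0.80 ± 0.086 on the quantile scale and -0.14 as deposited, not called. PDC1, the main pyruvate decarboxylase, was -0.66 ± 0.16 and -0.12. Both lost their call as deposited. The signal of PDC6 lay near the floor, averaging 6.6 at time 0 and 0.97 at 60 min in YSS89, where the 25th percentile of all values was 6.2. PDC6 fell by 1.76 on the quantile scale and was not called without b and c (-1.85, adjusted p = 0.163 by limma).

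Genes of gluconeogenesis fell in both strains. Of the 4 listed, 3 fell at 60 min in each strain under both scalings, and 1, PYC2, rose in YSS89 on the quantile scale only (0.30), which without b and c was 0.080 and not called. FBP1, the fructose-1,6-bisphosphatase that runs opposite to phosphofructokinase, read 1038.3, 1109.6 and 1366.4 at time 0 in YSS89 and 13.5, 8.0 and 2.9 at 60 min. The 60 min values lay near the floor, where the 25th percentile of all values was 6.2. The sizes of the fall of FBP1 and of its strain difference are therefore uncertain. The change of FBP1 was -7.34 ± 0.44 in YSS89 and -5.11 ± 0.44 in YSS37. That of PCK1, phosphoenolpyruvate carboxykinase, was -6.16 ± 0.43 and -3.67 ± 0.43. For both genes the responses at 60 min differed between strains, by -2.23 ± 0.62 for FBP1 and by -2.49 ± 0.60 for PCK1, called under both scalings. Without b and c these differences were -1.95 and -2.24 and no longer called (adjusted p = 0.179 and 0.108 by limma), whereas the falls within YSS89 still were (-7.09 and -5.96).

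Of the 4 activators of glycolytic genes, 2 rose and 1 fell in YSS89 at 60 min under both scalings, and in YSS37 1 rose, RAP1. GCR1 fell by 0.65 ± 0.18 in YSS89 (adjusted p = 0.00627 by limma) and by 0.72 as deposited. Its partner GCR2 rose, by 0.88 ± 0.15 and by 0.78 as deposited, and RAP1 by 0.49 ± 0.15 and by 0.40. Without b and c, GCR2 was still called (0.61), and GCR1 (-0.58, adjusted p = 0.107 by limma) and RAP1 (0.36, adjusted p = 0.23) were not. The response of GCR1 was lower in YSS89 by -1.002 ± 0.25 and by -1.15 as deposited, both called, and by -0.94 without b and c, not called (adjusted p = 0.107 by limma). TYE7, a further activator, was not called in either strain at 60 min (-0.36 and -0.66).

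Across the 24 arrays the gene whose quantile values ran most like the mean of the 10 was ADH1 (r = 0.98), followed by YDL124W (0.969), APE1 (0.959), TSA1 (0.953) and ATG19 (0.945). For ENO1 alone they were YDL124W (0.975), UIP4 (0.966), NQM1 (0.959), ATG19 (0.957) and GLK1 (0.956). For ENO2 alone they were ARP2 (0.916), APE4 (0.898), ADH1 (0.891), SRV2 (0.89) and SSA1 (0.889). The first 2 sets shared YDL124W and ATG19, and the third shared only ADH1 with the first. The arrays share strain, time, chip lot and round, so these values describe likeness over 8 groups and carry no test. Likeness was computed on the quantile scale only, and how far the scaling shaped it was not tested.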

How the data were processed

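Messenger RNA was read on 24 arrays. The deposited table holds 1 linear intensity per probe set for 9335 probe sets, and its 2% trimmed mean was 100.09 to 100.15 on every array, so the authors had scaled each array. How probe signals were summarised is not given in the sources used here. Chip lot and hybridization settings (other values) came from the scanner's own files, per the file headers. The hybridization entry grouped the arrays into 4 rounds, which some alternatives used as a block or a subset. The lot was only set beside the strain.

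Intensities were transformed as log2(intensity + 1.4), the 10th percentile. After leaving out 60 control probe sets, arrays were quantile normalized. Probe sets naming 1 gene were kept, the brightest for each gene, giving 5656 genes. R 4.3.3 with limma 3.58.1 fitted 8 group means without a block and tested 11 contrasts, with Benjamini-Hochberg adjustment over all genes. Ratios were tested by exact permutation (Python 3.11.15). The script was tested on simulated data. The median standard error was 0.171, and 0.242 for differences of responses. The number of arrays limits the precision.

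All 10 members are named in every contrast. List genes are named where called, at most 4 by size; some not called are named beside them, a choice made after seeing the values. Likeness names the 5 highest correlations. Members and lists were chosen with earlier results of these data known. Same-letter arrays of a strain deviated together only weakly at the median, and pairing was not tested. Alternatives covered scaling, pseudocount, filter, probe sets, blocks, rounds, prior and each array left out. Genome coordinates and sequences are not used here.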

Additional observations from a re-analysis of the deposited data

Results flagged for a closer look

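On the quantile scale 11 responses of glycolytic genes differed between the strains by limma's test of the difference itself, each with an adjusted p under 0.05 over all genes. At 30 min the differences in log2 response, YSS89 minus YSS37, were -0.74 for FBA1, -0.79 for TPI1, -0.66 for PGK1, -0.81 for GPM1, -1.72 for ENO1 and -0.58 for CDC19. As deposited the same differences were -0.022, -0.086, -0.19, -0.24, -1.48 and 0.11, and of these ENO1 passed. At 60 min they were -0.96 for FBA1, -0.73 for TPI1, -0.62 for GPM1, -1.58 for ENO1 and -0.61 for CDC19. As deposited they were -0.52, -0.23, -0.21, -1.40 and -0.13, and FBA1 and ENO1 passed. The difference for PGK1 at 30 min kept its call in 3 of the 12 fits that left out 1 array (-0.88 to -0.43) and in 12 of 26 alternatives in all. No test for a single outlying array was applied to groups of 3.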

How the results depend on the processing

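Each of the 110 changes of single genes kept its direction and its side of the threshold with a pseudocount of 1, with the mean of a gene's probe sets and with a replicate block by letter, under which 9, 8 and 6 of the 10 genes were again called lower in YSS89 at 30, 40 and 60 min. These settings could hardly have moved the 10 genes, though they count among the alternatives. Each gene has 1 probe set, its signal lies far above either pseudocount, and a letter block leaves the changes of equal groups as they were. Under a replicate block by strain and letter 79 of 80 did. Whether the letters pair the arrays was not tested. Deviations of arrays with the same letter and strain correlated at -0.24 to 0.33 (median 0.036), over 0.1 in 8 of 39 pairs. With different letters of the same strain the median was -0.013, over 0.1 in 8 of 78 pairs. Across strains 8 of 45 pairs with the same letter and 6 of 90 with different letters were over 0.1. Leaving out an array reversed 0 of 780 changes, while 24 lost their call and 10 gained one. Between values called under neither setting the sign differed for 40 of these, for 23 of 110 as deposited and for 15 under median centring, and these are not counted as reversals.

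The scaling was decisive, and the causes were not tested. As deposited, 9 of 110 changes turned: in YSS89 TPI1 at 20 min (0.18), FBA1 (0.17), ENO2 (0.084) and CDC19 (0.30) at 30 min, ENO2 at 40 min (0.016), PGK1 (0.15), ENO2 (0.52) and CDC19 (0.037) at 60 min, and the difference of responses of CDC19 at 30 min (0.11). Numbers of genes called lower in YSS89 then were 0, 4, 3 and 1 at 20, 30, 40 and 60 min, with 1 called higher at 20 and 1 at 60 min, 6 in the strain comparison at time 0, and 1 and 2 in the differences of responses at 30 and 60 min. Under median centring 26 turned: in YSS89 TPI1 (0.36), GPM1 (0.55) and CDC19 (0.51) at 20 min, FBA1 (0.33), TPI1 (0.14), PGK1 (0.046), GPM1 (0.069), ENO2 (0.24) and CDC19 (0.46) at 30 min, ENO2 (0.12) at 40 min, and TPI1 (0.026), PGK1 (0.26), GPM1 (0.047), ENO2 (0.63) and CDC19 (0.14) at 60 min. The strain difference at time 0 became -0.40 for FBA1 and -0.54 for TPI1. The differences of responses became 0.27, 0.21, 0.098, 0.048 and 0.41 for FBA1, TPI1, PGK1, GPM1 and CDC19 at 30 min, and 0.049, 0.072, 0.72 and 0.16 for TPI1, GPM1, ENO2 and CDC19 at 60 min. With centring 4 genes were called higher and 0 lower at 20 min, beside 600 and 420 of all 5656 genes. At 30 min 2 were higher and 1 lower, beside 1351 and 1171, and at 40 min 1 was lower, beside 1127. At 60 min 1 was higher and 1 lower, beside 1447 and 1028. All 10 were lower in the strain comparison at time 0, beside 1342. In the differences of responses 1 was lower at 30 min, beside 388. At 60 min 1 was called each way, beside 679 higher and 307 lower.

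Small counts moved with other settings, and a count without b and c of YSS89 rests on 1 array at time 0. The count at 20 min (1 lower) was 0 with the round as a block, within the second round, with only the groups of the contrast or without b and c at time 0, and 2 with a trended and robust prior. The strain count at time 0 (1 lower) was 2 with a pseudocount of 6.2 or the dimmest 25% left out, 3 with the trended prior, and 0 with the round as a block, with only the groups compared or without those 2 arrays. The difference of responses at 60 min fell from 5 to 3 genes with only the groups of the contrast. Settings chosen after seeing the data combined deposited values with another choice. The second round holds 1 array of YSS89, replicate a, at each time except 20 min. With the second round alone, TPI1 at 20 min (0.13), FBA1 (0.13) and ENO2 (0.12) at 30 min turned, and 0, 2, 2 and 1 genes were lower at 20, 30, 40 and 60 min. With the round as a block the same 3 turned (0.11, 0.11 and 0.033), the counts were 0, 2, 4 and 1, and 0 and 5 genes were lower in the strain comparisons at 0 and 30 min and 1 in each difference of responses. Without b and c at time 0, TPI1 (0.14) at 20 min and FBA1 (0.15) at 30 min turned, the counts were 0, 3, 4 and 1, the strain count at time 0 was 0, and 1 gene was lower in each difference of responses.

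Leaving out 1 array each moved the count called lower from 0 to 1 in YSS37 at 60 min (without replicate b there), between 0 and 1 in YSS89 at 20 min (0 without any 1 of the 3 arrays at time 0, or without replicate a or b at 20 min), and between 0 and 3 in the strain comparison at time 0 (3 without YSS89 replicate a, 2 without YSS37 replicate c, 0 without YSS89 replicate c). The enolase ratio of YSS89 ranged from -1.73 to -1.44 and passed after adjustment without replicate b at 20 min, which gave the lower end. Signal over background did not limit these genes.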

Other observations

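Genes specific to a cells were higher after galactose in YSS89, and none of these calls was kept without the arrays before galactose that stood apart. On the quantile scale 5 of the 6 were called higher at 60 min, beside 23.9% of all genes: MFA1 (1.43) and MFA2 (0.63), which encode the a-factor precursors, STE2 (0.53), the alpha-factor receptor, STE6 (0.51), the a-factor exporter, and BAR1 (0.90), the protease that degrades alpha-factor. As deposited 4 of these were called, all but MFA2, beside 19.3% of all genes. In a fit chosen after seeing the data, without replicates b and c of time 0, 0 of the 6 were called higher under either scaling and 1, AGA2, was called lower (-0.68), with MFA1 at 0.27 and BAR1 at 0.41. In YSS37 1 of the 6 rose, STE2 (0.45), under both scalings, beside 21.1% of all genes (25.8% as deposited). The summed intensity of the 6 genes ran from 738.1 to 1046 over the YSS37 arrays and from 760.7 to 1702 over the YSS89 arrays.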
